A study of Mus musculus with 6 samples.

Results

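Lysosome and autophagy genes were examined in BV2 cells, an immortalised mouse microglial line labelled wild type, as a list of 42 symbols that serve the breakdown of cell contents and of engulfed material. The members were taken by symbol, as the brightest array row annotated with that symbol alone. Of the 42 symbols, 40 had such a row among 22180 genes with a row, and 39 of these reached the level filter and were tested among 12212 genes. Tfeb lay just under the filter. Glb1 had its signal on a row shared with another gene, and Optn was not analysed here.

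Each of 6 arrays held 1 sample. In 3 samples the cells had telmisartan with GW9662 over 2 h, followed by 1 h of the bacterial product LPS (lipopolysaccharide), and in the other 3 they had telmisartan without GW9662 over 2 h, followed by 1 h of LPS. Telmisartan blocks the angiotensin II type 1 receptor and is a partial agonist of PPARG, a nuclear receptor. GW9662 blocks PPARG irreversibly, and LPS activates TLR4. The cells of both groups therefore carried telmisartan and LPS, and the comparison measures what the antagonist adds to them at this early time. The labels give no drug doses and do not say whether samples of a group came from separate cultures, so the p-values rest on a spread that may be partly technical.

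Lysosomes are acid compartments in which cathepsins and other hydrolases degrade protein, sugar chains and lipid. A proton pump of many subunits, the V-ATPase, keeps them acid, and transcription factors of the MiT/TFE family (TFEB, TFE3 and MITF) drive many lysosomal genes through a palindromic promoter sequence known as the CLEAR element. In autophagy, a membrane formed under control of ULK1 and the Beclin 1 lipid kinase complex is coated with lipid-linked proteins of the ATG8 family, closes around its cargo and fuses with a lysosome. Microglia are phagocytes and rely on this system to digest debris and to process antigen.

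No lysosome or autophagy gene passed the threshold, an adjusted p of 0.05 in limma, with 0 of 39 higher and 0 of 39 lower with GW9662. Over all genes tested, 0.0409% passed, 0.0246% higher and 0.0164% lower. The 39 members had an adjusted p of 0.994 or higher, and their median difference was 0.01 on the log2 scale, with GW9662 minus without it, beside -0.02 over all genes tested. A positive difference was found in 21 members (53.8%) and in 41.2% of all genes. An unadjusted p under 0.05 was reached by 1 member, Wipi2, upward, where 1.66% of all genes reached it upward, and by 0 members downward, where 2.78% of all genes did, so that 2.56% of members and 4.45% of all genes reached it. Fully separated groups were found upward in 3 members, Wipi2, Atg7 and Gabarapl2 (4.01% of all genes), and downward in 1, Ctsc (5.36% of all genes), which makes 10.3% of members and 9.37% of all genes. Taken over both directions, the share of separated groups is near the background. The share of positive differences is higher among members. Separated groups were 3 upward and 1 downward among members, too few to read a direction from. Without the same 2 arrays they were 7 upward (14.4% of all genes) and 10 downward (24.7% of all genes). The direction of the members was not tested. As the RNA came from whole cultures of a cell line, fewer cells with a transcript and less of it per cell cannot be told apart in any of these values.

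The differences were small and their intervals narrow. In 31 members (79.5%) the difference was under 0.1 in size, against 73.1% of all genes. The 95% interval lay within a 1.5-fold change either way for all 39 members (98.7% of all genes) and within a 1.25-fold change either way for 34 (74.1% of all genes). The 5 members with a wider interval were Atp6v0d2, Becn1, Wipi2, Atg3 and Gabarapl1. The highest upper bound was 0.47, that of Gabarapl1, equal to 1.38-fold, and the lowest bound was -0.37, that of Atp6v0d2. Folds of 1.25 and 1.5 were chosen as marks after the values were seen. Within groups, the median range over the 3 arrays was 0.10 with GW9662 and 0.16 without it, while the median size of the difference between groups was 0.04. In 2 of the 39 members the difference was larger than the range of both groups.

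**Figure D1:**
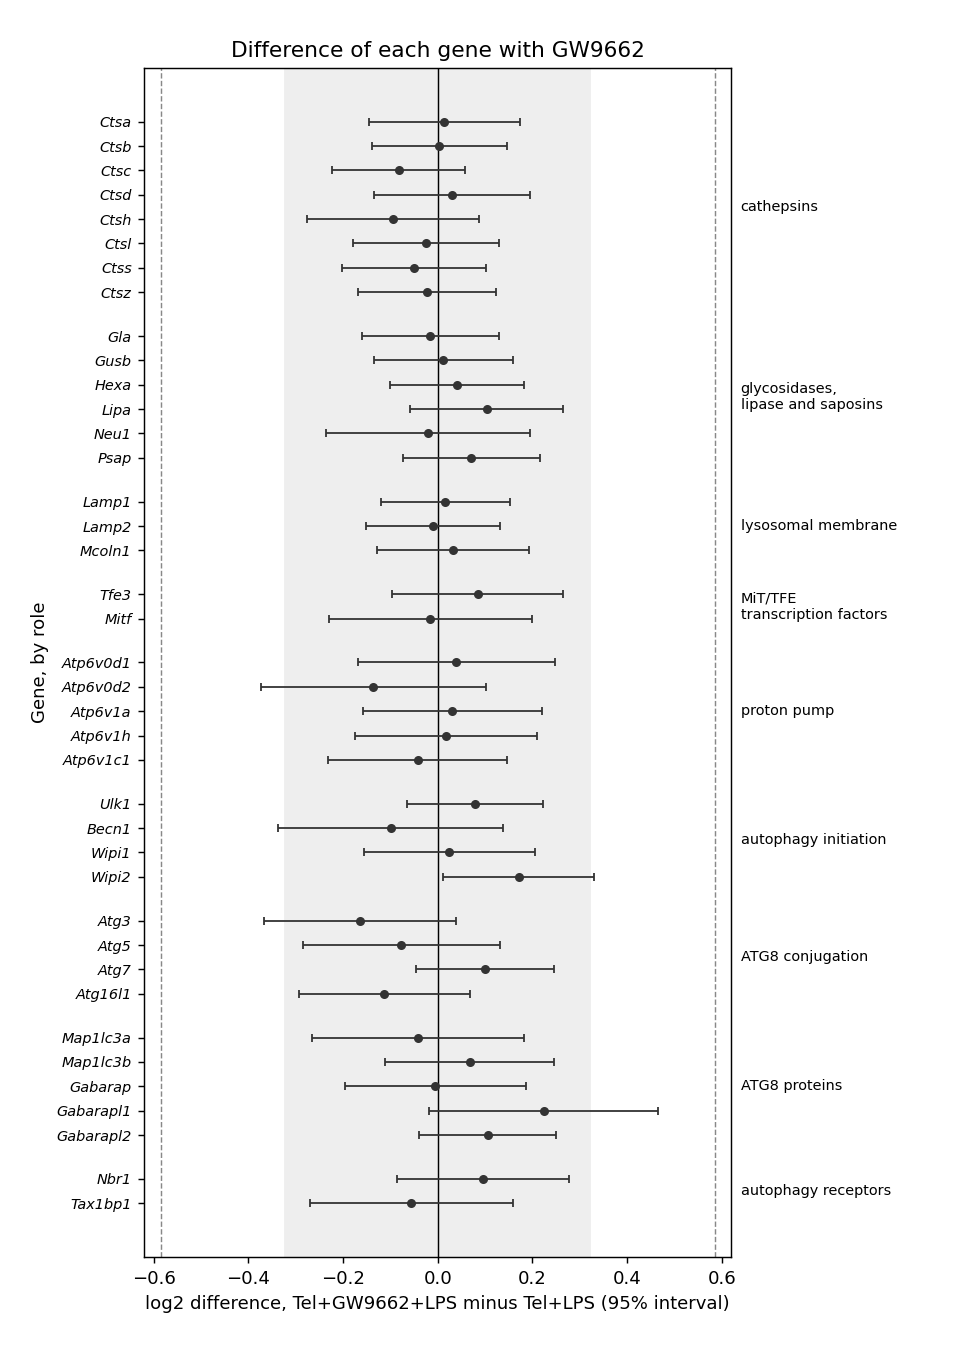
Difference of each of the 39 members tested (points, log2 level with telmisartan, GW9662 and LPS minus that with telmisartan and LPS, 3 arrays each) with its 95% interval from limma (bars), by role. The shaded band marks a 1.25-fold and the dashed lines a 1.5-fold change either way; every interval lies within the dashed lines, and that of Wipi2 is the sole one that does not cross 0.

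The arrays themselves differed in ways the groups do not explain. They correlated at 0.990 to 0.996 over the genes tested, and the first principal component held 42.8% of the variance. On it, replicate 3 of telmisartan and LPS and replicate 2 with GW9662 lay apart from the other 4, with scores of 14.6 and 7.55 against -8.15 to -0.98. Among the members, replicate 3 of telmisartan and LPS was the lowest of the 6 arrays in 16 (41.0%), against 19.8% of all genes, and the highest in 10 (25.6%), against 28.0% of all genes. Replicate 2 with GW9662 was the highest in 9 members (23.1%), against 15.1% of all genes, and the lowest in 1 (2.56%), against 15.8% of all genes. One of this pair of arrays was the highest in 19 members (48.7%), against 43.1% of all genes, and the lowest in 17 (43.6%), against 35.6%. The part of these 2 arrays in the differences was not tested beyond leaving them out. Of the markers of microglia and macrophages, 10 of 12 lay above the level filter, among them Csf1r, Itgam and Trem2. Nearest above it were Aif1, Cx3cr1 and C1qa, with means over the 6 arrays of 6.86, 7.02 and 6.90. Tmem119 and P2ry12, markers of resting microglia, lay below it with means of 6.04 and 5.77 with GW9662 and 6.08 and 5.87 without it. The 10 above the filter had 3 positive and 7 negative differences, and none passed the threshold. Only Aif1 among them had separated groups, downward (5.36% of all genes), with a difference of -0.20 ± 0.08. Markers of other cells were mostly under the filter, with 2 of 6 astrocyte, 2 of 6 neuron, 2 of 5 oligodendrocyte, 3 of 6 fibroblast and 1 of 5 lymphocyte genes above it and none past the threshold.

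**Figure D2:**
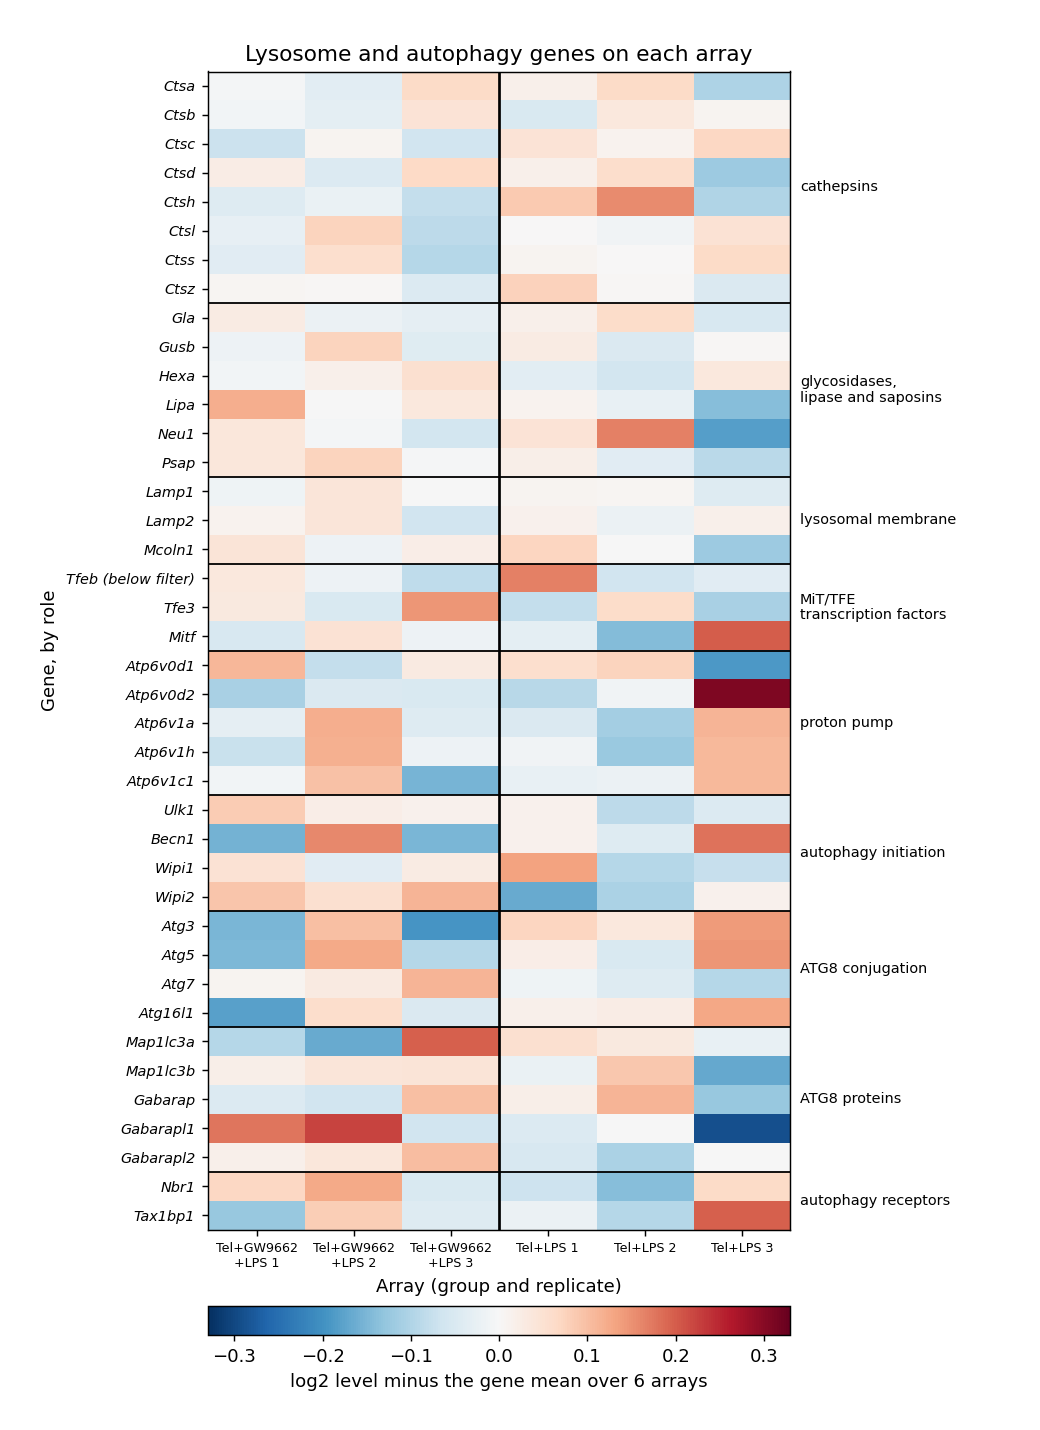
Level of the 40 members with a row on each of the 6 arrays, as the log2 level minus the mean of that gene over the 6 arrays (colour), with genes in rows by role, the arrays with GW9662 on the left and those without it on the right. The column of replicate 3 of telmisartan and LPS holds many of the deepest colours, red for Atp6v0d2 and blue for Gabarapl1, and no role changes colour as a block between left and right.

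Promoters of 7 members held the 8-base core of the CLEAR element. The letters TCACGTGA, which read the same on both strands, were searched in RefSeq windows of GRCm38.p6 that reach from 250 bases before to 50 after a gene start. A window was available for 34 members, of which 7 held the letters (20.6%), against 1.12% of 27025 genes. The shorter E-box CACGTG, which lies inside the longer motif and also reads the same on both strands, was found in 12 members (35.3%) and in 8.09% of all genes. The stretches around the 8-base matches are shown because these letters are the known recognition sequence of MiT/TFE factors. They run 5′ to 3′ on the strand of the gene, with the match in capitals. Flanking bases stop at the gene start, but the only match of Atp6v0d1 runs across it and the second match of Ctsa lies past it.
Ctsa (chr2:164833734-164833784, plus strand): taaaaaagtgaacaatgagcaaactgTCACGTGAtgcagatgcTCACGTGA
Ctsd (chr7:142387893-142387952, minus strand): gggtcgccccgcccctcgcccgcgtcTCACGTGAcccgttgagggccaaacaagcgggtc
Gla (chrX:134601167-134601255, minus strand): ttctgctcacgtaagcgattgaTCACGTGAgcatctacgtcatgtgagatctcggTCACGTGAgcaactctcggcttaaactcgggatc
Mcoln1 (chr8:3500447-3500506, plus strand): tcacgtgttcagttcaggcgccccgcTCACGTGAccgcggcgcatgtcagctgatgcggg
Atp6v0d1 (chr8:105566061-105566094, minus strand): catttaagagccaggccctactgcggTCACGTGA
Atp6v1a (chr16:44139358-44139417, minus strand): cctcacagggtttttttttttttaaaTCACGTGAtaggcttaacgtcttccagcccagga
Atg3 (chr16:45158731-45158790, plus strand): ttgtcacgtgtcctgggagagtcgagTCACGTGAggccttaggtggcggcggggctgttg
The match began 4 bases before the annotated start in Atp6v0d1, 46 in Mcoln1, 72 in Atg3, 99 in Ctsd and 132 in Atp6v1a, while Ctsa and Gla held 2 matches each. These 7 genes had a median difference of 0.03 with GW9662, and 5 of 7 were positive. In the wider lists described below, 5 genes held the letters, with a median of -0.02 and 2 of 5 positive. Of all genes with the letters, 200 were tested, with a median of -0.01, 86 of them positive and 0 past the threshold in limma. A match of letters is a description and does not show that a factor was bound there.

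Among the factors themselves, Tfe3 had a log2 level of 10.20, 10.12 and 10.32 with GW9662, against 10.09, 10.23 and 10.06 without it. The groups overlapped, and the difference was 0.08 ± 0.08 (SE), with a 95% interval of -0.10 to 0.26. Mitf had 9.16, 9.26 and 9.20 with GW9662, against 9.18, 9.07 and 9.41 without it, a difference of -0.02 ± 0.09. The arrays with GW9662 lay inside the range of the others, whose highest value was on replicate 3. Tfeb, with 6.18, 6.12 and 6.06 with GW9662 and 6.31, 6.08 and 6.10 without it, lay near the level filter of 6.15, and its difference was -0.04.

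The 8 cathepsins had differences from -0.10 to 0.03, and the 95% interval of each lay within a 1.25-fold change. Ctsc encodes the dipeptidyl peptidase that activates granule serine proteases, and it was the sole member with groups separated downward. Its log2 level was 11.50, 11.58 and 11.51 with GW9662, against 11.61, 11.58 and 11.64 without it. The nearest arrays met at 11.58 when rounded, and the difference was -0.08 ± 0.06 (interval -0.22 to 0.06). Ctsh, an aminopeptidase, had 9.52, 9.55 and 9.49 with GW9662, against 9.66, 9.73 and 9.47 without it, a difference of -0.10 ± 0.08. Replicate 3 of telmisartan and LPS was the lowest of all 6 arrays for Ctsh. Without that array the difference was -0.17, at an unadjusted p of 0.0380 in limma, and 0.85 after adjustment.

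The other cathepsins lay closer to 0. Ctsb, a cysteine protease also released by activated microglia, averaged 13.38 ± 0.04 with GW9662 and 13.38 ± 0.04 without it (SD, n = 3 each), with an interval of -0.14 to 0.15. Ctsd, the main aspartic protease of lysosomes, averaged 12.37 ± 0.06 with GW9662 and 12.34 ± 0.09 without it. Ctsa, the carboxypeptidase that protects lysosomal sialidase and galactosidase, averaged 12.23 ± 0.05 with GW9662 and 12.22 ± 0.08 without it. Both lay lowest on replicate 3 of telmisartan and LPS. Ctss, which trims the invariant chain of MHC class II molecules, averaged 11.82 ± 0.08 with GW9662 and 11.87 ± 0.03 without it, with a difference of -0.05 ± 0.07. Ctsl and the carboxypeptidase gene Ctsz differed by -0.03 and -0.02. Of the cathepsins, 3 were positive and 5 negative, and the median was -0.02.

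Enzymes that degrade lipid and sugar chains differed by -0.02 to 0.10. Lipa, the acid lipase that frees cholesterol and fatty acids from engulfed lipid, had 12.34, 12.22 and 12.25 with GW9662, against 12.23, 12.19 and 12.08 without it. A single pair of arrays overlapped, and the difference was 0.10 ± 0.07 (interval -0.06 to 0.26), or 0.06 to 0.14 with 1 array left out. Psap, the precursor of the saposins that present glycolipids to hydrolases, had 12.08, 12.12 and 12.04 with GW9662, against 12.07, 12.01 and 11.96 without it, a difference of 0.07 ± 0.06. Its highest array without GW9662 overlapped with the lowest array with it. The sugar-cleaving enzyme genes Hexa, Gusb and Gla differed by 0.04, 0.01 and -0.02. The sialidase gene Neu1 had a difference of -0.02 and spread more widely without GW9662, at 9.05, 9.17 and 8.82, than with it, at 9.04, 9.00 and 8.94.

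The 3 lysosomal membrane genes differed by -0.0093 to 0.03. Lamp1, a major glycoprotein of that membrane, had 11.66, 11.71 and 11.67 with GW9662, against 11.68, 11.68 and 11.63 without it, and its interval ran from -0.12 to 0.15. Lamp2, which serves chaperone-mediated autophagy in one of its isoforms, averaged 11.50 ± 0.05 with GW9662 and 11.51 ± 0.02 without it. Mcoln1, the calcium channel through which lysosomes signal to TFEB, had 9.84, 9.78 and 9.82 with GW9662, against 9.87, 9.80 and 9.68 without it, a difference of 0.03 ± 0.07. In all 3 genes the groups overlapped.

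The 5 proton pump genes differed by -0.14 to 0.04. Atp6v0d2, an alternative d subunit known from osteoclasts and macrophages, had 6.85, 6.91 and 6.91 with GW9662, against 6.87, 6.95 and 7.27 without it. The high value on replicate 3 of telmisartan and LPS made most of the difference of -0.14 ± 0.10, which was -0.02 without that array. Its widely expressed counterpart Atp6v0d1 had 11.44, 11.25 and 11.36 with GW9662, against 11.39, 11.40 and 11.14 without it, and was lowest on that same array, with a difference of 0.04 ± 0.09. Atp6v1c1, a subunit of the stalk that joins the cytosolic and membrane sectors of the pump, had 11.65, 11.75 and 11.50 with GW9662, against 11.63, 11.64 and 11.76 without it, a difference of -0.04 ± 0.08. The catalytic subunit gene Atp6v1a and the regulatory subunit gene Atp6v1h differed by 0.03 and 0.02, and both were highest on the pair of arrays that stood apart.

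The 4 genes that start autophagy differed by -0.10 to 0.17. Wipi2 encodes a protein that binds the lipid made by the Beclin 1 complex and brings ATG16L1 to the forming membrane. It had a log2 level of 9.34, 9.30 and 9.36 with GW9662, against 9.08, 9.14 and 9.26 without it. The groups were separated, with a difference of 0.17 ± 0.07 (interval 0.01 to 0.33), or 1.13-fold, at an unadjusted p of 0.0380 in limma and an adjusted p of 0.994. By p it ranked 425 among the 12212 genes. The difference was 0.13 to 0.22 with 1 array left out and 0.24 without both arrays that stood apart.

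The other genes of early autophagy lay on both sides of 0. Ulk1, the kinase that starts the process, had 8.04, 7.98 and 7.97 with GW9662, against 7.97, 7.87 and 7.91 without it, a difference of 0.08 ± 0.06. The groups met at 7.97. Becn1 had 9.47, 9.79 and 9.47 with GW9662, against 9.64, 9.58 and 9.80 without it, a difference of -0.10 ± 0.10. Its highest value in each group was on the array that stood apart, and without replicate 2 with GW9662 the difference was -0.20. Wipi1, a relative of Wipi2, differed by 0.02 ± 0.08.

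The 4 genes that link ATG8 proteins to lipid differed by -0.16 to 0.10, with 1 positive and 3 negative. Atg7, the activating enzyme at its head, had 9.95, 9.97 and 10.05 with GW9662, against 9.93, 9.90 and 9.85 without it. The groups were separated upward, with a difference of 0.10 ± 0.06 (interval -0.04 to 0.25). Atg3, the conjugating enzyme that acts next, had 10.19, 10.44 and 10.14 with GW9662, against 10.41, 10.37 and 10.48 without it, a difference of -0.16 ± 0.09 (interval -0.37 to 0.04). Replicate 2 with GW9662 lay among the arrays without it. Without that array the difference of Atg3 was -0.25, at an unadjusted p of 0.00896 in limma, and 0.68 after adjustment. Atg5 and Atg16l1, parts of the complex that places ATG8 proteins on the membrane, differed by -0.08 ± 0.09 and -0.11 ± 0.08, and both were likewise highest with GW9662 on replicate 2.

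Among the 5 ATG8 family genes, Gabarapl1 had the largest difference of all members. Its log2 level was 9.04, 9.08 and 8.79 with GW9662, against 8.81, 8.86 and 8.57 without it. The groups overlapped through replicate 3 of the group with GW9662, and the difference was 0.22 ± 0.11 (interval -0.02 to 0.47) at an unadjusted p of 0.0651 in limma. With 1 array left out it ran from 0.13, without replicate 3 of telmisartan and LPS, to 0.31, without replicate 3 with GW9662. Gabarapl2 had 7.60, 7.62 and 7.68 with GW9662, against 7.53, 7.48 and 7.58 without it, and its groups were separated by a narrow gap, with a difference of 0.11 ± 0.06. Map1lc3b, the form of LC3 most used as a marker of autophagosomes, averaged 11.15 ± 0.01 with GW9662 and 11.08 ± 0.13 without it. Map1lc3a and Gabarap differed by -0.04 and -0.0047. These are transcript levels, and the lipid-linked share of the proteins, by which autophagy is usually followed, was not measured here.

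**Figure D3:**
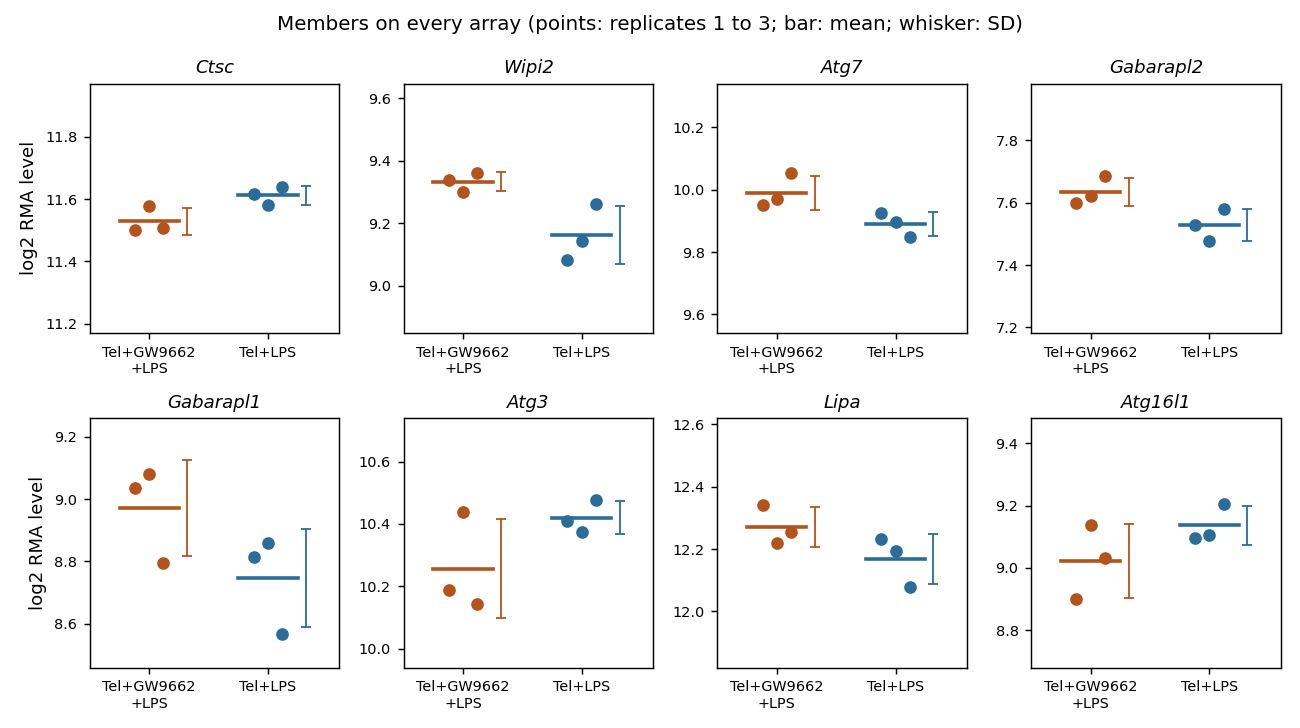
Log2 level on every array (points, replicates 1 to 3 from left to right) with the mean (bar) and SD (whisker, n = 3) for the 4 members whose groups did not overlap (top row) and the other 4 with the smallest p (bottom row), each on a scale of the same height. The groups of Wipi2 lie furthest apart in the top row, and in Atg3 replicate 2 with GW9662 sits among the arrays without it.

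Of the autophagy receptors, which tie cargo to ATG8 proteins, Nbr1 had 9.69, 9.75 and 9.57 with GW9662, against 9.56, 9.48 and 9.69 without it, a difference of 0.10 ± 0.08. Tax1bp1 had 10.96, 11.17 and 11.04 with GW9662, against 11.07, 10.99 and 11.28 without it, a difference of -0.06 ± 0.09. The groups overlapped in both. Sqstm1, a receptor that is also a target of the oxidant-responsive factor NRF2 and is not among the 42 members, had 11.60, 11.50 and 11.59 with GW9662, against 11.19, 11.16 and 11.12 without it. Its groups were far apart, and it differed by 0.41 ± 0.06 at an adjusted p of 0.142 in limma, so it did not pass.

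The members were also fitted without the pair of arrays that stood apart, and still none passed the threshold. Without both, Wipi2 differed by 0.24 ± 0.07, Atg3 by -0.23 ± 0.07 and Ctsh by -0.18 ± 0.07, with adjusted p of 0.594 to 0.638 in limma. These 3 were the members with an unadjusted p under 0.05, 1 upward (2.9% of all genes) and 2 downward (4.83% of all genes). Groups were then separated in 7 members upward (14.4% of all genes) and in 10 downward (24.7% of all genes), among them Ctsc, Ctsl, Ctss, Becn1, Atg5 and Atg16l1. With replicate 3 of telmisartan and LPS alone left out, an unadjusted p under 0.05 was found for Wipi2 upward (2.21% of all genes) and Ctsh downward (3.55% of all genes), and groups were separated in 6 members upward (8.74% of all genes) and 3 downward (12.5% of all genes). With replicate 2 of the group with GW9662 alone left out, it was found for 0 members upward (2.09% of all genes) and for Becn1 and Atg3 downward (4.71% of all genes), and groups were separated in 4 members upward (8.79% of all genes) and 7 downward (16.7% of all genes). With array weights, which count an array less the more it departs from the others of its group, Wipi2 had an unadjusted p under 0.05 upward (6.31% of all genes), and Ctsh and Atg3 had one downward (10.2% of all genes). The weights of replicates 1 to 3 were 5.74, 0.62 and 0.37 without GW9662 and 1.37, 0.49 and 1.11 with it. In that fit, replicate 1 of telmisartan and LPS therefore set most of the level of its group.

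A wider set of 6 lists held 146 further symbols of lysosome and autophagy, of which 137 had a row and 131 were tested. None of these passed the threshold. The median difference was 0.02, with 76 positive (58.0%) and 55 negative, where 41.2% of all genes tested were positive. An unadjusted p under 0.05 was reached upward by 7 genes (1.66% of all genes) and downward by 3 (2.78% of all genes). Fully separated groups were found upward in 13 (4.01% of all genes) and downward in 7 (5.36% of all genes).

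Among wider lysosomal enzymes, 19 of 33 were positive (57.6%, against 41.2% of all genes). Arsa, the sulphatase that degrades sulphatide, had 7.61, 7.61 and 7.74 with GW9662, against 7.40, 7.50 and 7.48 without it, and differed by 0.19 ± 0.07. The mannosidase gene Man2b1 differed by 0.14 ± 0.06 and the iduronate sulphatase gene Ids by -0.21 ± 0.09. Membrane and sorting genes were split, with 16 of 29 positive (55.2%, against 41.2% of all genes). Groups were separated upward in 3 of them (4.01% of all genes) and downward in 5 (5.36% of all genes). Clcn7, the chloride-proton exchanger of lysosomes, had 9.49, 9.45 and 9.39 with GW9662, against 9.29, 9.13 and 9.28 without it, and differed by 0.21 ± 0.07. Ctns, which exports cystine from lysosomes, had 10.05, 9.96 and 10.00 with GW9662, against 9.82, 9.86 and 9.78 without it, and differed by 0.18 ± 0.06. Slc15a3, a peptide and histidine transporter, lay the other way, at 9.62, 9.68 and 9.57 with GW9662, against 9.78, 9.80 and 9.83 without it, and differed by -0.18 ± 0.06. In these 3 membrane genes the groups were separated, and the adjusted p in limma was 0.979 to 0.989. Mfsd8, named after its value was seen as the third gene with a downward unadjusted p under 0.05, differed by -0.18.

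The 13 further pump genes stayed within 0.1 on the log2 scale, and those with the smallest p were Atp6v1d at -0.07, Atp6v1f at 0.07 and Atp6v1g2 at -0.06. Further autophagy machinery was positive in 22 of 30 genes (73.3%, against 41.2% of all genes), with a median of 0.04, beside -0.02 over all genes. Plekhm1, an adaptor for fusion of autophagosomes with lysosomes, had 10.65, 10.54 and 10.53 with GW9662, against 10.45, 10.36 and 10.32 without it, and differed by 0.20 ± 0.07. Atg101, a subunit of the ULK1 complex, differed by 0.19 ± 0.07 and the lipid transfer protein gene Atg2a by 0.16 ± 0.08. In all 3 the arrays with GW9662 lay above the others. Beside Sqstm1, the receptor genes with the smallest p were Retreg1 at -0.12 and Calcoco1 at 0.15. Nutrient-sensing genes at the lysosome were positive in 12 of 20 (60.0%, against 41.2% of all genes), with Sesn2, a leucine sensor that restrains mTORC1, at 9.50, 9.34 and 9.38 with GW9662, against 9.23, 9.22 and 9.18 without it. The groups of Sesn2 were separated, with a difference of 0.19 ± 0.07, while Ddit4, another inhibitor of mTORC1, differed by 0.12 ± 0.06 and Fnip1, a partner of folliculin, by -0.18 ± 0.11.

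**Figure D4:**
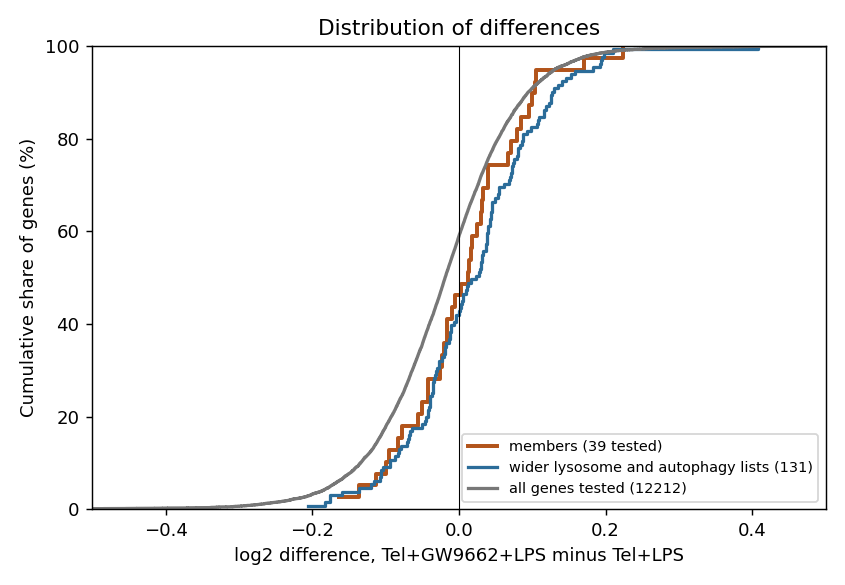
Cumulative share of genes (y axis, percent) by log2 difference, with GW9662 minus without it (x axis, shown from -0.5 to 0.5), for the 39 members, the 131 genes of the wider lists and all 12212 genes tested. The 3 curves lie close together, with medians of 0.01, 0.02 and -0.02.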

How the data were processed

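The authors deposited log2 values, 1 for each probe set and array, which they made by RMA (robust multi-array averaging). The submitters' processing notes name Expression Console as the program. Affymetrix Power Tools 1.4.1.46 did the calculation per the file headers, with background correction, quantile normalization over the 6 arrays and median polish, on a second-generation mouse gene array, although the labelling protocol names its predecessor. Quantile normalization hides a shift of most transcripts in 1 direction. The genome build of the probe annotation is not given in the sources used here, and no column of the tables was left out.

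Probe sets were named through the platform annotation. Of 41345, 23521 carried 1 symbol, 1820 several and 16004 had no annotation there. The brightest row stood for each gene, and genes with a mean of 6.15 or more (the median of the probe set means) were tested with limma 3.58.1 in R 4.3.3 (group as the only term, Benjamini-Hochberg adjustment, threshold 0.05). Intervals are 95% intervals of the moderated fit. The number of arrays, 3 in each group, limits the precision. Levels of different genes were not set against each other. Alternatives changed the source table, filter, probe set rule, scaling, moderation, array weights, replicate block and arrays used. The fit was tested on simulated data with planted changes far larger than the difference of any member. That test does not bear on changes as small as those of the members. Values on every array are given for members whose groups did not overlap and for the 2 with the smallest p in each role, and 3 genes with the smallest p were named in each wider list. The members and lists were chosen with earlier results of these data known, and the promoter motifs were searched after the fit.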

Additional observations from a re-analysis of the deposited data

How the results depend on the processing

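No member passed the threshold in any of the 17 other fits. Of the 39 members, 18 kept the sign of their difference in all of them. Over all genes, 3 passed upward and 2 downward. These counts were 0 and 1 with no filter on low levels, 6 and 6 with trend and robust moderation, 27 and 22 with array weights, 0 and 0 with no moderation, and 0 and 0 without both arrays that stood apart. The downward count was 5 with a stricter filter. With median centring 4 passed upward and 6 downward, and with repeated quantile normalization 4 upward and 6 downward. With 1 array left out, 0 passed upward and 0 to 2 downward. Member counts at an unadjusted p under 0.05 were 0 upward with no filter (1.41% of all genes), 2 downward with array weights (10.2% of all genes) and 2 downward without both arrays that stood apart (4.83% of all genes), namely Ctsh and Atg3. They were 0 to 1 upward (1.17% to 2.21% of all genes) and 0 to 2 downward (1.79% to 4.71% of all genes) with 1 array left out. Members with separated groups were 6 upward (6.21% of all genes) and 0 downward (4.29% of all genes) with repeated quantile normalization, 0 downward in the table with 2 decimals (4.84% of all genes), and 7 upward (14.4% of all genes) and 10 downward (24.7% of all genes) without both arrays. With 1 array left out they were 3 to 7 upward (6.69% to 8.79% of all genes) and 1 to 7 downward (8.29% to 16.7% of all genes). The 7 upward came without replicate 3 with GW9662 (6.69% of all genes) and again without replicate 1 of telmisartan and LPS (7.21% of all genes), and the 7 downward without replicate 2 with GW9662 (16.7% of all genes). The median over the members was -0.013 with array weights, -0.0036 without both arrays that stood apart, and -0.0031 to 0.02 with 1 array left out.

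With the replicate number as a block, 0 genes passed upward and 0 downward, and 1 member, upward, had an unadjusted p under 0.05 (1.11% of all genes). The labels do not say whether same-numbered arrays were paired. Deviations of same-numbered arrays from their group means correlated at 0.29, -0.45 and -0.12. With 3 arrays in each group, these values cannot decide it.

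The differences that changed sign in some fit were up to 0.07 in size in the main fit, that of Map1lc3b. The median size over the members was 0.04. With median centring, Lamp2 was at 0.0055 and Gabarap at 0.010. With repeated quantile normalization, Ctsb was at -0.013, Gla at 0.0096, Neu1 at 0.0031, Lamp2 at 0.012 and Mitf at 0.011. With array weights, Ctsa was at -5.8e-05, Gusb at -0.028, Lamp1 at -0.0075, Mcoln1 at -0.027, Mitf at 0.0071, Atp6v1h at -0.0063, Wipi1 at -0.074 and Atp6v1g2 at 0.040. Without both arrays that stood apart, Ctsa was at -0.012, Gusb at -0.017, Lamp1 at -0.017, Mcoln1 at -0.0021, Mitf at 0.053, Map1lc3a at 0.0083, Map1lc3b at -0.0036 and Atp6v1g2 at 0.0028. With 1 array left out, the ranges were -0.033 to 0.049 for Ctsa, -0.021 to 0.022 for Ctsb, -0.023 to 0.066 for Ctsd, -0.069 to 0.011 for Ctsl, -0.052 to 0.0097 for Ctsz, -0.046 to 0.010 for Gla, -0.022 to 0.035 for Gusb, -0.12 to 0.059 for Neu1, -0.00042 to 0.027 for Lamp1, -0.031 to 0.020 for Lamp2 and -0.019 to 0.076 for Mcoln1. They were -0.091 to 0.080 for Mitf, -0.045 to 0.089 for Atp6v0d1, -0.022 to 0.095 for Atp6v1a, -0.040 to 0.076 for Atp6v1h, -0.10 to 0.023 for Atp6v1c1, -0.016 to 0.10 for Wipi1, -0.15 to 0.031 for Map1lc3a, -0.00023 to 0.13 for Map1lc3b, -0.068 to 0.051 for Gabarap and -0.12 to 0.029 for Tax1bp1. The cause of these changes was not tested.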

Other observations

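Some rows of member genes were not used in the main fit. Of these, the second row of Gabarap entered only the alternative that averaged all rows of a gene. The row shared by Glb1, the lysosomal galactosidase gene, and Tmppe had a log2 level of 9.53, 9.52 and 9.45 with GW9662, against 9.56, 9.48 and 9.46 without it. The groups overlapped, and which of the genes gave the signal cannot be told apart. A second row of Gabarap had 7.94, 8.07 and 8.13 with GW9662, against 7.97, 8.47 and 7.99 without it, a difference of -0.10, where the brighter row differed by -0.0047. A row shared by Becn1 and Cntd1 lay under the level filter, at means of 5.87 with GW9662 and 5.84 without it.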
